A study of Mus musculus with 20 samples.

Results

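The complement genes of the mouse cecum were examined through 9 genes picked by symbol, namely C3, C4b, C2, Cfb, Cfi, C1qa, C1qb, C1qc and Cd55, out of 19887 genes in the count table. All 9 were found by their Ensembl identifiers, and 8 of them had enough reads to be tested. Cfi, the factor I gene, did not. RNA was taken from sections of cecum from 20 C57BL/6 mice, 5 on each of 4 diets. All mice had eaten the Total Western Diet (TWD), a rodent diet with nutrient levels modelled on American intakes, for 6 weeks after being weaned when 3 to 4 weeks old. They then ate the TWD alone (0% RPS) or the TWD with 2, 5 or 10% (w/w) raw potato starch (RPS), a resistant starch that largely escapes digestion in the small intestine, for another 3 weeks. The mice of each diet are called mouse 1 to mouse 5, and a number does not link mice of different diets. The labels give the strain but no genotype, sex or cage.

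Complement is a set of blood and tissue proteins that tag microbes and dying cells for removal. C1q, built from the chains of C1qa, C1qb and C1qc, starts the classical pathway, in which C4 and C2 form an enzyme that cleaves C3, and factor B takes the place of C2 in the alternative pathway. Cd55 and factor I take such enzymes apart or destroy their active pieces. Most circulating complement comes from the liver, whereas C1q is made mainly by macrophages, and the intestine makes part of its own C3 in stromal, epithelial and myeloid cells.

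The promoters of C4b, C3 and Cd55 are shown because these were the 3 members with an unadjusted p under 0.05 in the comparison of 10 with 0% RPS. Each is the 250 bases before the start of the main transcript on the minus strand of GRCm39, read from the GRCm39 genome, and the start site follows the last base. They lie at chr17:34962913-34963162 for C4b, chr17:57535156-57535405 for C3 and chr1:130390927-130391176 for Cd55. Capitals mark matches, on either strand, to the kappaB motif (GGGA, any 4 bases, then CC), the C/EBP motif (TTNNGNAA) or an E-box (CACGTG).
C4b: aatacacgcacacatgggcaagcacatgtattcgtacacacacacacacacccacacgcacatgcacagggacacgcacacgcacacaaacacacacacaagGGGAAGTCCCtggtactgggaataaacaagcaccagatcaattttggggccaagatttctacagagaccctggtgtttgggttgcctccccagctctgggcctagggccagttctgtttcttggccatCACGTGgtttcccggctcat
C3: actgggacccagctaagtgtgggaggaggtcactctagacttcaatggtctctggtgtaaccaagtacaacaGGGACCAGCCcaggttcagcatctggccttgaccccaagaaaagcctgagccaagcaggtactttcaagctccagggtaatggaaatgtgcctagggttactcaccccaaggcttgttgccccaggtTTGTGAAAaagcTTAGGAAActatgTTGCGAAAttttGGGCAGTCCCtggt
Cd55: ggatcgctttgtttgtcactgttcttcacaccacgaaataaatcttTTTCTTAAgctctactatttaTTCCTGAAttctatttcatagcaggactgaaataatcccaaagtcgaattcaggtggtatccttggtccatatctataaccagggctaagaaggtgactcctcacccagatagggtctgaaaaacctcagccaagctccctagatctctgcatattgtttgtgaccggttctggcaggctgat

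The 2 kappaB matches of the C4b window lie at 1 place, since the letters match on both strands, and the E-box lies 20 to 15 bases before the start. The C3 window held 2 places with the kappaB letters, and its 3 places with the C/EBP letters lie within 51 bases of the start, the last of them matching on both strands. The Cd55 window held 2 C/EBP matches, 204 to 197 and 183 to 176 bases before the start. The kappaB letters were found in 19.9% of the 250-base windows of 17681 protein-coding genes, the C/EBP letters in 33.5%, and the E-box in 6.96%. Of the other members, Cfb held kappaB matches at 2 places and 1 C/EBP match, C1qb 2 overlapping kappaB matches, Cfi 1 kappaB and 1 C/EBP match, C2 1 kappaB match, C1qc 1 C/EBP match, and C1qa 1 C/EBP match and 1 match to TTCNNNGAA (the gamma-activated site), which 6.97% of windows held. The interferon-stimulated response element (GAAA, any 2 bases, then GAAA) was in 3.16% of windows and in 0 of the 9. A match is a run of letters and was not tested for binding.

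The members form 2 gene clusters and 4 single positions. C1qb, C1qc and C1qa follow each other on chromosome 4, with gaps of 2954 and 2846 bp. Cfb and C2 are neighbours on chromosome 17, 18 bp apart, with C4b 111939 bp away, and C3 is on the same chromosome at a distance. Cd55 is on chromosome 1 and Cfi on chromosome 3. In GRCm39 coordinates C4b (ENSMUSG00000073418) spans chr17:34947354-34962912, C3 (ENSMUSG00000024164) chr17:57510964-57535155, C2 chr17:35081578-35117241 and Cfb chr17:35074852-35081559. C1qb spans chr4:136606009-136613511, C1qc chr4:136616466-136620376, C1qa chr4:136623223-136626161, Cd55 (ENSMUSG00000026399) chr1:130366469-130390926 and Cfi chr3:129629533-129668981. Cfi is on the plus strand and the other 8 members are on the minus strand. Libraries were stranded, but the sources used here do not say whether strand was used in counting. Nelfe, on the opposite strand, overlaps Cfb over 3865 bp, and Zbtb12, also on the opposite strand, overlaps C2 over 17386 bp, so without strand their reads could not be told apart from those of Cfb and C2. Gm20547, a protein-coding gene of the table on the same strand, overlaps Cfb over 6172 bp and C2 over 19441 bp, so that strand would not separate its reads from theirs, and the levels of Cfb and C2 are uncertain for this reason. C4a, a near copy of C4b, was not analysed here, and reads shared by both copies may have been counted for C4b or left out. Cd55b, the near copy of Cd55, had 0 to 9 reads per mouse.

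Total counts per mouse were between 14967798 and 42687283, so 3 counts, taken as the smallest level that could be shown, corresponded to 0.07 to 0.19 CPM, which are counts scaled to a common library size. The 3 libraries in which over 12% of counts came from mitochondrial genes (mouse 5 on 0% RPS, mouse 3 on 2% RPS and mouse 4 on 5% RPS, with 13.0, 13.8 and 15.4%) stood apart from the others, which had 8.998 to 11.5%. Epithelial markers (Epcam, Vil1, Cdh1, Krt8, Krt20 and Car1) summed to 21567 CPM or more in every library. Of the 4 hepatocyte markers, Ttr had 18601 reads over all 20 mice together, Apoa2 800, Alb 110 and Serpina1a 19, and they summed to 24.0 to 43.8 CPM per mouse. Reads carry no molecular identifiers, so the limit of 3 counts covers counting error only.

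Within the cecum of mice fed 0% RPS, C1qa was the most abundant member per length of transcript. Its level was 31.9 ± 5.38 CPM per kb (SD, n = 5). C3, the central component, followed with 7.76 ± 3.52 CPM per kb, C1qc with 7.68 ± 2.12 and C1qb with 6.22 ± 1.84. These 3 levels differed by less than their SD. C4b, which carries the fourth component, had 4.65 ± 0.85 CPM per kb, within the SD of C1qb. Cd55, a membrane protein that speeds the decay of the C3-cleaving enzymes, had 2.78 ± 0.81 CPM per kb, and the gap to C4b exceeded both SDs. Cfb, the alternative pathway protease, and C2, its classical pathway counterpart, were near each other at 0.95 ± 0.09 and 0.82 ± 0.24 CPM per kb. Cfi was lowest at 0.053 ± 0.012 CPM per kb. Among the other complement genes, the highest mean per length in each role on 0% RPS was that of C1s1 in the classical pathway (11.7 CPM per kb), Colec10 in the lectin pathway (3.31), Cfd in the alternative pathway (18.6 ± 21.2), Serping1 among soluble regulators (25.7), Cr1l among membrane regulators (44.1) and C1qbp among receptors and binding proteins (63.3). Clu, at 23.4 CPM per kb on 0% RPS, was above Serping1 on 10% RPS (60.2 against 26.4). Cfd varied widely between mice, from 5.00 to 52.9 CPM (median 10.9) on 0% RPS, against 0.035 to 44.5 CPM (median 0.95) on 10% RPS. Its log2 fold change between these diets was -0.63 with an SE of 1.41 (edgeR adjusted p = 0.852). The terminal pathway genes were low, with C8g highest at 0.56 CPM per kb.

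**Figure D1:**
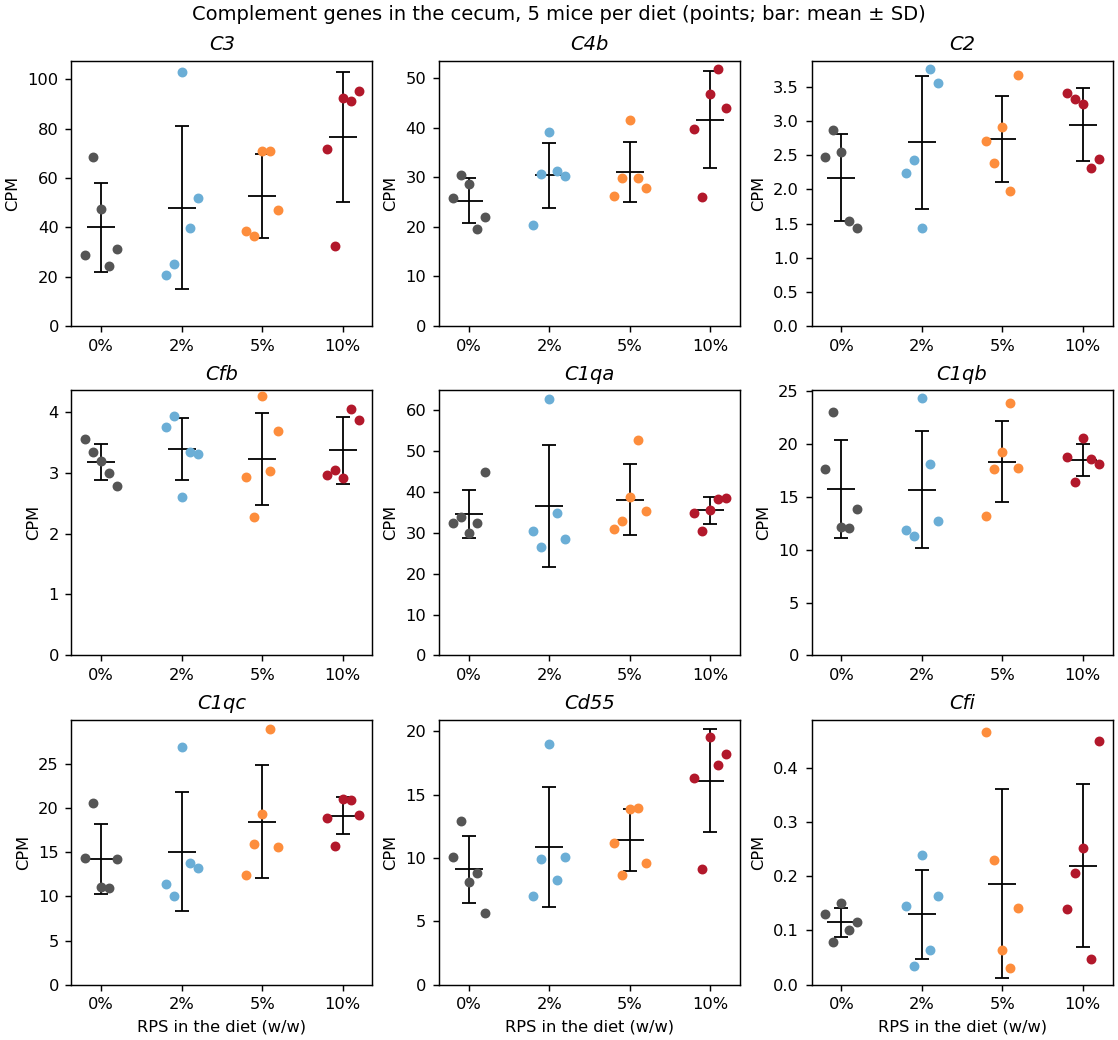
Level of each complement gene in each mouse, in CPM on a linear axis from 0, by percentage of RPS in the diet. Each point is 1 of 5 mice and the bars are the mean ± SD. In C3, C4b and Cd55, 4 of 5 mice on 10% RPS lie above every mouse on 0% RPS and mouse 2 lies among them, and in Cfb and C1qa the diets overlap.

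The first question was whether RPS changed the members compared with the TWD alone. C4b was higher with 10% RPS, at 1.65-fold the level with 0% RPS, and was the 1 member of 8 that passed the threshold (adjusted p of at most 0.05 and a fold change of at least 1.5), against 1.04% of all 15348 genes tested, or 0.547% counting only higher ones. C3 and Cd55 had similar estimated differences that missed it after adjustment. C2 and C1qc had smaller differences, and Cfb, C1qa and C1qb were near the level of 0% RPS. No member had a lower estimate. Since whole tissue was used, a change in the number of cells of a type and one in the RNA per cell cannot be told apart.

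C4b was 25.8, 30.5, 28.7, 19.5 and 21.9 CPM in mice 1 to 5 on 0% RPS. It was 20.4, 30.6, 39.1, 31.3 and 30.3 CPM on 2% RPS and 26.2, 29.9, 41.4, 29.8 and 27.8 CPM on 5% RPS. On 10% RPS it was 39.7, 25.99, 46.7, 51.8 and 44.0 CPM. Mice 1, 3, 4 and 5 on 10% RPS were above every mouse on 0% RPS, and mouse 2 lay within the 0% RPS range, so the groups overlapped. The log2 fold change of 10 against 0% RPS was 0.72 ± 0.18 (SE, 95% interval 0.36 to 1.07, n = 5 per diet, edgeR adjusted p = 0.0473). This call was close to the threshold. It remained when 0% RPS mouse 2, 2% RPS mouse 1 or 3, 5% RPS mouse 3 or 4, or 10% RPS mouse 2 was left out (edgeR adjusted p 0.0286 to 0.0469, log2 fold change 0.72 to 0.85), and was lost when any 1 of the other 14 mice was left out (edgeR adjusted p 0.0511 to 0.137, log2 fold change 0.63 to 0.77). Without the 3 mice with a high mitochondrial share it was 0.68 (edgeR adjusted p = 0.0558), and with that share as a covariate 0.72 (edgeR adjusted p = 0.0336), past the threshold. DESeq2's Wald test gave 0.71 with an adjusted p of 0.00686, whereas edgeR's adjusted p was 0.0527 with no filter on low counts, 0.0674 with only the 2 diets fitted and 0.0923 with 1 surrogate variable, a covariate estimated from the counts of all genes, where the log2 fold change was 0.47.

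Over the 20 mice C4b rose with the summed markers of mesothelium (r = 0.827), macrophages (r = 0.709) and B and plasma cells (r = 0.639). It ran against those of epithelium (r = -0.707). No relation to fibroblast or smooth muscle markers was shown (r = 0.333 and 0.287, permutation p = 0.153 and 0.22). The summed epithelial markers were 31909 to 38108 CPM on 0% RPS, against 21567 to 35604 CPM on 10% RPS. The macrophage markers (among them Adgre1, Csf1r, Cd68, Mrc1 and Cx3cr1, all tested) summed to 43.1 to 83.1 CPM on 0% RPS, against 61.2 to 85.3 CPM on 10% RPS. The mesothelial markers Upk3b, Msln and Wt1, of which Wt1 was too low to test, summed to 0.57 to 10.2 CPM on 0% RPS, against 2.50 to 17.4 CPM on 10% RPS, and no marker of these lists was at 0 over all mice. The B and plasma cell markers summed to 55.4 to 446 CPM on 0% RPS, against 270.5 to 491 CPM on 10% RPS, the fibroblast markers to 333 to 472 and 423 to 660 CPM, and the smooth muscle markers to 1891 to 4583 and 3093 to 5500 CPM. With the summed level of a marker set as a covariate, the log2 fold change of C4b was 0.38 for epithelium, 0.44 for macrophages, 0.33 for mesothelium, 0.47 for B and plasma cells, 0.68 for fibroblasts and 0.75 for smooth muscle, and no member passed the threshold in these 6 fits (edgeR adjusted p of C4b 0.11 to 0.626). Over all genes, 0 to 6 passed it in them.

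C3 was 28.7, 68.5, 47.5, 24.3 and 31.1 CPM in mice 1 to 5 on 0% RPS and 71.8, 32.3, 92.4, 91.4 and 95.1 CPM on 10% RPS. On 2% RPS it was 20.6, 25.0, 102.9, 39.6 and 51.8 CPM, and on 5% RPS 38.4, 36.7, 71.1, 71.0 and 47.0 CPM. The highest single value was in mouse 3 on 2% RPS, and mouse 2 on 10% RPS was again within the 0% RPS range. The log2 fold change of 10 against 0% RPS was 0.94 ± 0.41 (SE, n = 5 per diet, unadjusted p = 0.0356, edgeR adjusted p = 0.226). C3 had the largest estimate among the members and the largest SE, with a spread between mice of 45.4% of the mean on 0% RPS and 68.9% on 2% RPS. With a marker sum as a covariate the estimate was -0.066 for mesothelium, 0.15 for epithelium, 0.15 for macrophages, 0.35 for B and plasma cells, 0.62 for fibroblasts and 0.84 for smooth muscle. With the mitochondrial share as a covariate it was 0.97, and with 1 surrogate variable 0.24 (edgeR adjusted p = 0.556). Without the 3 mice with a high mitochondrial share it was 0.87 (edgeR adjusted p = 0.19).

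Cd55 was 10.1, 12.9, 8.10, 8.80 and 5.65 CPM on 0% RPS and 16.3, 9.11, 19.6, 17.3 and 18.2 CPM on 10% RPS. On 2% RPS it was 7.01, 9.91, 19.0, 8.29 and 10.1 CPM, and on 5% RPS 11.2, 8.64, 13.9, 14.0 and 9.61 CPM. As in C3 and C4b, 4 of 5 mice on 10% RPS were above all mice on 0% RPS and mouse 2 was not. The log2 fold change was 0.82 ± 0.26 (SE, n = 5 per diet, unadjusted p = 0.00462, edgeR adjusted p = 0.0934). DESeq2's Wald test gave 0.82 with an adjusted p of 0.0327, and edgeR's adjusted p was 0.0496 without 0% RPS mouse 2, 0.0411 without 2% RPS mouse 3 and 0.065 to 0.232 in the other 18 fits without 1 mouse. With 1 surrogate variable the estimate was 0.38 (edgeR adjusted p = 0.152). With a marker sum as a covariate it was 0.23 for epithelium, 0.24 for mesothelium, 0.35 for B and plasma cells, 0.37 for macrophages, 0.59 for fibroblasts and 0.85 for smooth muscle. With the mitochondrial share as a covariate it was 0.84 (edgeR adjusted p = 0.0558), and without the 3 mice with a high mitochondrial share it was 0.70 (edgeR adjusted p = 0.0509).

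The remaining tested members had no adjusted p under 0.05 with 10% RPS. C2 was 1.43 to 2.87 CPM on 0% RPS, against 2.31 to 3.42 CPM on 10% RPS, with 3 of 5 mice above the 0% RPS range and a log2 fold change of 0.45 ± 0.25 (SE, n = 5 per diet, edgeR adjusted p = 0.335). Cfb was 2.78 to 3.55 and 2.91 to 4.05 CPM, with a log2 fold change of 0.08 ± 0.17 and a 95% interval of -0.24 to 0.41. Over the 8 members, 3 had an unadjusted p under 0.05, against 19.5% of all genes. All 3 were higher with 10% RPS, against 9.74% of all genes, and 0 were lower, against 9.75%. All 8 estimates were above 0, as were 50.9% of those of all genes, and the median log2 fold change was 0.44 against 0.00 for all genes. In 0 of 8 members did the 2 diets not overlap, against 4.88% of all genes.

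**Figure D2:**
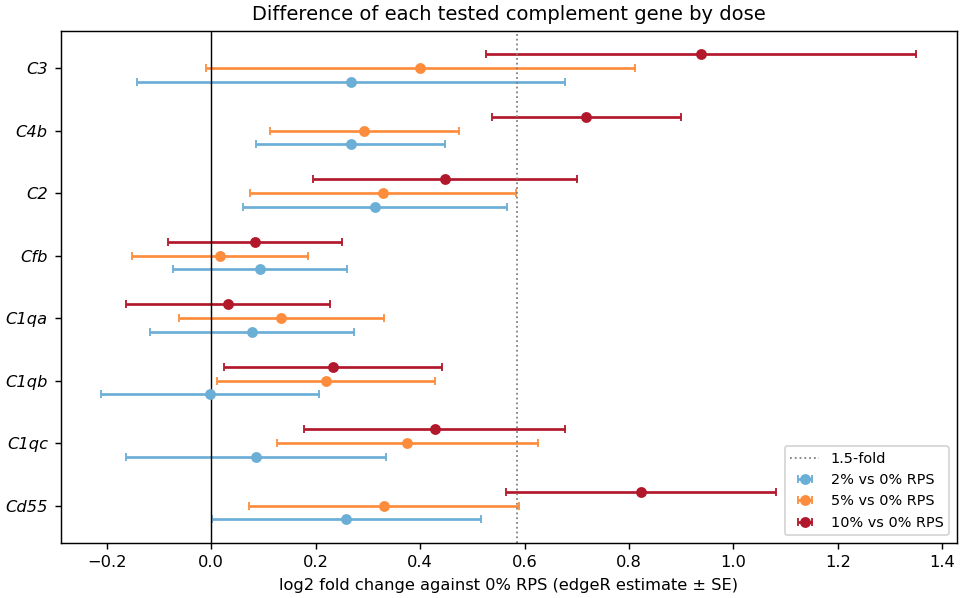
Log2 fold change of each tested complement gene for 2, 5 and 10% RPS against 0% RPS, as the edgeR estimate ± SE from 5 mice per diet. The dotted line marks a fold change of 1.5. The estimates for 10% RPS exceed it in C3, C4b and Cd55, and all those for 2 and 5% RPS lie below it.

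The lower doses were each compared with the TWD alone in the same fit. With 5% RPS, 0 of 8 members passed the threshold in edgeR, against 0.195% of all genes, and 0 had an unadjusted p under 0.05, against 13.3%. The largest log2 fold changes were 0.40 ± 0.41 in C3, 0.38 ± 0.25 in C1qc, 0.33 ± 0.26 in Cd55, 0.33 ± 0.25 in C2 and 0.29 ± 0.18 in C4b, and the median was 0.31. With 2% RPS, 0 members passed, against 0% of all genes, 0 had an unadjusted p under 0.05, against 5.77%, and the median was 0.18. DESeq2's Wald test called 0 members with 5 and 2% RPS, and 241 and 5 of all genes. These comparisons share the mice on 0% RPS. Between 10 and 5% RPS, 0 members passed, against 0% of all genes, and C4b had an unadjusted p under 0.05 (log2 fold change 0.42 ± 0.18, unadjusted p = 0.0289, edgeR adjusted p = 1), against 2.79% of all genes.

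A linear trend over the dose was fitted to all 20 mice. C4b rose by 0.066 ± 0.016 on the log2 scale for each 1% RPS (SE, edgeR adjusted p = 0.0488), and was the 1 member of 8 called, against 1.11% of all genes. Cd55 had a slope of 0.077 ± 0.023 (adjusted p = 0.0856) and C3 one of 0.090 ± 0.036 (adjusted p = 0.189). The slopes of Cfb and C1qa were 0.0050 ± 0.015 and 0.0020 ± 0.018. The trend call of C4b was also near the threshold, since 15 of the 20 fits without 1 mouse lost it (edgeR adjusted p 0.0566 to 0.153, slope 0.057 to 0.068). It remained without 0% RPS mouse 2, 2% RPS mouse 3 or 5, 5% RPS mouse 4, or 10% RPS mouse 2 (edgeR adjusted p 0.02 to 0.0484). With DESeq2's size factors edgeR's adjusted p for C4b was 0.0503, with no filter on low counts 0.0542, and with 1 surrogate variable 0.118 (slope 0.041). DESeq2's Wald test called C4b and Cd55 in the trend (adjusted p = 0.0302 for Cd55), among 710 of all genes.

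None of the C1q chains, which occur in equal numbers in each C1q molecule, passed the threshold in edgeR at any dose, and none had an unadjusted p under 0.05 in that fit. In other fits some did, with no adjusted p of at most 0.05. With 1 surrogate variable C1qa was -0.28 with 10% RPS (unadjusted p = 0.0444, edgeR adjusted p = 0.206), on the other side of 0, and with only the 2 diets fitted C1qc was 0.43 (unadjusted p = 0.0211, edgeR adjusted p = 0.176). C1qa was 32.3, 33.9, 29.97, 32.4 and 44.8 CPM on 0% RPS and 34.9, 30.4, 35.5, 38.3 and 38.5 CPM on 10% RPS. Its log2 fold change was 0.03 ± 0.20 with a 95% interval of -0.35 to 0.42. C1qb was 17.6, 23.1, 12.2, 12.02 and 13.8 CPM on 0% RPS and 18.8, 16.4, 20.6, 18.6 and 18.1 CPM on 10% RPS, with a log2 fold change of 0.23 ± 0.21. C1qc was 14.3, 20.6, 11.03, 10.9 and 14.2 CPM on 0% RPS and 18.8, 15.7, 21.0, 20.9 and 19.2 CPM on 10% RPS, with a log2 fold change of 0.43 ± 0.25 (edgeR adjusted p = 0.351). Only in C1qc were any mice on 10% RPS (2 of 5) above every mouse on 0% RPS. Mouse 5 on 0% RPS had the highest C1qa of its diet and mouse 2 the highest C1qb and C1qc. The high C1qa of mouse 3 on 2% RPS (62.8 CPM), mouse 4 on 5% RPS (52.7 CPM) and mouse 5 on 0% RPS fell on the 3 libraries with a high mitochondrial share, whose part in it was not tested.

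The ratio of the C1q chains within a mouse was compared after these values had been seen. The ratio of C1qc to C1qa in CPM ranged from 0.32 to 0.61 (median 0.37) on 0% RPS and from 0.50 to 0.59 (median 0.54) on 10% RPS. The log2 difference was 0.42 (exact permutation test, two-sided, p = 0.0635, adjusted over 3 ratios 0.0952). For C1qc to C1qb the log2 difference was 0.19 (exact permutation p = 0.0317, adjusted 0.0952), and for C1qb to C1qa 0.23 (exact permutation p = 0.302). None passed after adjustment. Leaving out 1 mouse brought either ratio of C1qc to an adjusted p under 0.05. Without mouse 5 on 0% RPS, the 1 mouse of these diets with a high mitochondrial share, the difference for C1qc to C1qb was 0.23, and without mouse 2 on 0% RPS that for C1qc to C1qa was 0.56 (exact permutation test, adjusted p = 0.0476 for each).

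Cfi, whose product cuts up active C3b and C4b, had 1 to 17 reads per mouse. Counts exceeded 3 in 11 of 20 mice. It was 0.080 to 0.15 CPM on 0% RPS, 0.035 to 0.24 on 2% RPS, 0.031 to 0.47 on 5% RPS and 0.047 to 0.45 on 10% RPS, and no difference could be shown at this depth.

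The next question was which members varied together from mouse to mouse. How many pairs of all genes vary together was not computed. Of 36 member pairs, 14 had a Benjamini-Hochberg adjusted permutation p of at most 0.05, 13 of them positive. All 14 also had one for the deviations from the diet means, and 11 without the 2 mice farthest from the median of the gene named first. The tightest pair was C1qb and C1qc, neighbours on chromosome 4 (r = 0.933, rho = 0.937, permutation p = 1e-05 for both, the smallest 100000 permutations can give, n = 20, r = 0.914 without the 2 mice, r = 0.924 within diets). C3 and C4b had r = 0.867 and rho = 0.827 (permutation p = 1e-05 and 2e-05, adjusted 9e-05 and 0.00036, r = 0.846 without the 2 mice, r = 0.841 within diets). C3 and Cd55 had r = 0.867 and rho = 0.817 (permutation p = 1e-05 and 3e-05, adjusted 9e-05 and 0.00036, r = 0.831 without the 2 mice, r = 0.821 within diets). C4b and Cd55 had r = 0.852 and rho = 0.731 (permutation p = 1e-05 and 0.00038, adjusted 9e-05 and 0.00152, r = 0.811 without the 2 mice, r = 0.760 within diets). In these 3 pairs the relation was found within diets as well as over all mice.

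C3 was also related to C1qc (r = 0.827, rho = 0.782, permutation p = 3e-05 and 0.00013, r = 0.785 without the 2 mice, r = 0.789 within diets) and C1qb (r = 0.742, rho = 0.791, permutation p = 0.0003 and 9e-05, r = 0.660 without the 2 mice, r = 0.709 within diets). C2 and Cfb, next to each other on chromosome 17, had r = 0.293 and rho = 0.212 (permutation p = 0.209 and 0.366, r = 0.041 without the 2 mice, r = 0.282 within diets). C2 was related to C1qa at r = -0.530 (permutation p = 0.016, adjusted 0.0412), and r was -0.635 within diets (adjusted permutation p = 0.043), but rho was -0.286 (permutation p = 0.22) and r was -0.176 without the 2 mice, so the relation over all mice rests on those. Cfb and Cfi had no pair with an adjusted p of at most 0.05.

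**Figure D3:**
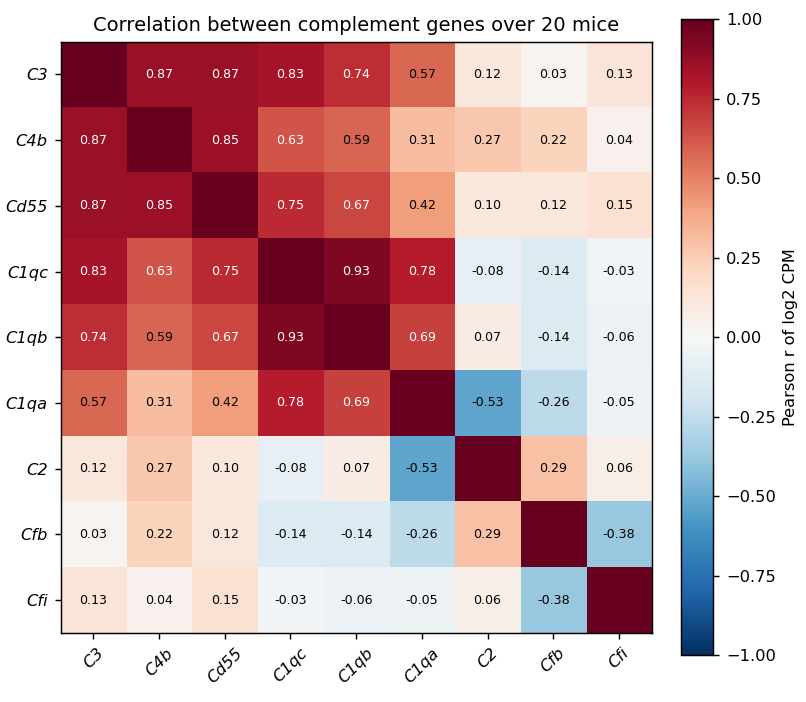
Pearson r of log2 CPM over the 20 mice for every pair of the complement genes, on a scale from -1 to 1. C3, C4b, Cd55 and the 3 C1q chains form a block of positive values, from 0.31 for C4b and C1qa to 0.93 for C1qb and C1qc, and C2, Cfb and Cfi lie outside it.

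**Figure D4:**
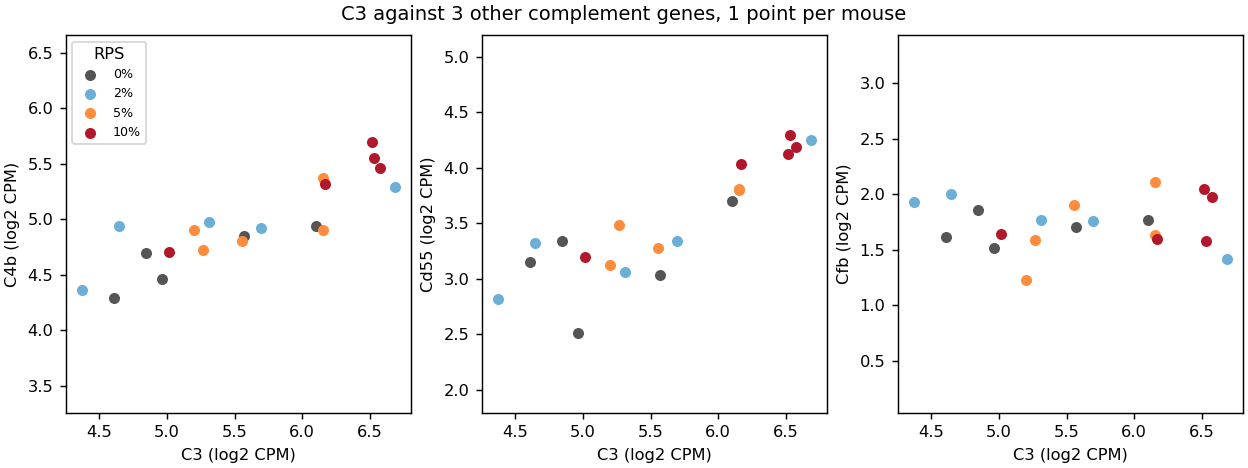
Log2 CPM of C4b, Cd55 and Cfb against that of C3, with 1 point per mouse coloured by diet and both axes of all panels on the log2 scale. C4b and Cd55 rise with C3 over all mice (r = 0.867 for each) and over deviations from the diet means (r = 0.841 and 0.821), and Cfb does not follow it (r = 0.028).

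Tissue composition and depth were set beside the members in 104 relations with 13 measures of each library, 11 marker sums, the mitochondrial share and the total count. Of these, 35 had an adjusted permutation p of at most 0.05, a share not computed for all genes. Of the 35, 26 also had one without the 2 mice farthest from the median of the measure, and 24 within diets. Those named next are among the 35. The mesothelial marker sum, which was mostly Msln, tracked C3 most closely (r = 0.936, rho = 0.914, permutation p = 1e-05, the smallest possible, r = 0.935 without the 2 mice, r = 0.919 within diets). It also tracked Cd55 (r = 0.862) and C4b (r = 0.827). The macrophage sum tracked C1qb (r = 0.873, rho = 0.890, r = 0.902 without the 2 mice, r = 0.875 within diets), C1qc (r = 0.824), C3 (r = 0.805) and Cd55 (r = 0.779). The T cell sum tracked Cd55 (r = 0.827), C3 (r = 0.812), C1qc (r = 0.800), C1qb (r = 0.771), C4b (r = 0.681) and C1qa (r = 0.669). The epithelial sum ran against Cd55 (r = -0.756), C4b (r = -0.707) and C3 (r = -0.665). C1qa followed the mitochondrial share (r = 0.762), but rho was 0.411 and r was 0.389 without the 2 mice. Cfb fell with the total count of the library (r = -0.697, rho = -0.692, r = -0.590 without the 2 mice, r = -0.739 within diets). The part of these measures in the differences between diets was tested only through the covariates above.

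The other genes of the pathway were followed through a list of 45, of which 39 were in the table and 31 were tested. None passed the threshold with 10% RPS, either in edgeR or in DESeq2's Wald test, against 1.04% of all genes in edgeR. At an unadjusted p under 0.05, 5 were higher, against 9.74% of all genes, and 1 was lower, against 9.75%. Of the 31 estimates 23 were above 0, against 50.9% of all genes, and the median log2 fold change was 0.33 against 0.00 for all genes. Cd59a, a membrane protein that blocks the terminal complex, came nearest. It was 10.8 to 14.8 CPM on 0% RPS, 11.5 to 20.04 on 2% RPS, 14.5 to 24.1 on 5% RPS and 15.8 to 21.5 on 10% RPS, so that every mouse on 10% RPS was above every mouse on 0% RPS, which held for 1.68% of all genes. Its log2 fold change was 0.55 ± 0.16 with 10% RPS (edgeR adjusted p = 0.0684) and 0.67 ± 0.16 with 5% RPS (edgeR adjusted p = 0.0619). DESeq2's Wald test called Cd59a, and no other gene of the list, with 5% RPS and in the trend, where it called 241 and 710 of all genes. Without the 3 mice with a high mitochondrial share, edgeR called Cd59a with 10% RPS, among 317 of all genes. With 5% RPS, 3 of the 20 edgeR fits without 1 mouse called it.

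Of the pathway starters, Fcna and Colec10, pattern recognition proteins of the lectin pathway, had log2 fold changes of 0.50 ± 0.22 and 0.51 ± 0.22 with 10% RPS (edgeR adjusted p = 0.231 and 0.213). Cfp, or properdin, which stabilizes the alternative pathway enzyme, had 0.58 ± 0.23 (adjusted p = 0.179). Hc, the gene of the fifth component, had 1.13 ± 0.42 (adjusted p = 0.147) at only 0.11 to 0.70 CPM in these 2 diets. C1qbp, a mitochondrial protein that also binds C1q, had -0.27 ± 0.10 (adjusted p = 0.171), at 64.5 to 87.0 CPM on 0% RPS, against 49.5 to 72.4 CPM on 10% RPS.

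**Figure D5:**
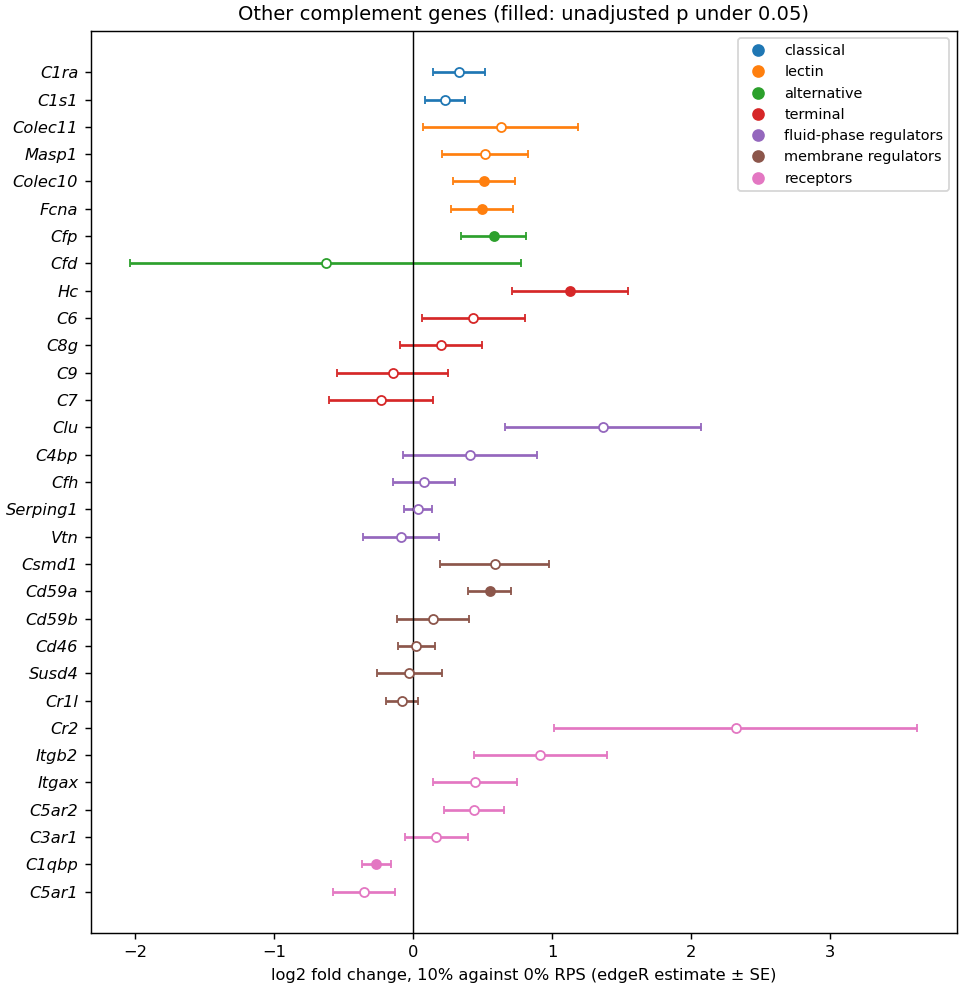
Log2 fold change of the 31 other complement genes tested, 10 against 0% RPS, as the edgeR estimate ± SE, coloured by role. Filled points have an unadjusted p under 0.05, which is 5 higher genes and C1qbp on the lower side. Clu and Cr2 have large estimates with wide errors.

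Of the same list, 12 of 31 genes were related to C3 over the mice at an adjusted permutation p of at most 0.05, all positive. Of the 12, 10 also were without the 2 mice farthest from the median of C3, and 11 within diets. The lowest r of the 12 was 0.648, and 5.36% of all the other genes tested had an r with C3 at least as high. The closest were Clu, a soluble inhibitor of the terminal complex (r = 0.919, rho = 0.869, permutation p = 1e-05, the smallest possible, r = 0.904 without the 2 mice, r = 0.890 within diets), and the C1q-associated proteases C1s1 (r = 0.874) and C1ra (r = 0.873). Among all tested genes, those with the pattern most like C3 over the 20 mice were Nrros (r = 0.947) and Extl1 (r = 0.940). For C4b they were Tnfrsf11b (r = 0.888), Arhgdib (r = 0.885) and Sulf1 (r = 0.878), and for Cd55 Icosl (r = 0.966), Lcp1 (r = 0.957) and Plxnc1 (r = 0.954). For C1qa they were Apoe (r = 0.921), Zgpat (r = 0.918) and Zmiz2 (r = 0.911), for C1qb Gm2a (r = 0.892), Pik3r5 (r = 0.885) and Lag3 (r = 0.882), and for C1qc Unc93b1 (r = 0.940), Shisa5 (r = 0.932) and Gm2a (r = 0.931). The nearest genes of C2 were Ggps1 (r = 0.888), Osbpl11 (r = 0.878) and Sppl2a (r = 0.861). Cfb had no partner above 0.74, with Pir (r = 0.734), Tspan5 (r = 0.734) and Rab40c (r = 0.7097) nearest, and the rarely counted Cfi had Or5b106 (r = 0.652), AW554918 (r = 0.647) and Oacyl (r = 0.640). These are the highest of 15348 values each, and the genes share libraries and scaling.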

How the data were processed

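RNA from the cecum of 20 mice was measured by RNASeq. The authors removed nucleotides of low quality and ambiguous reads, aligned the single-end reads against GRCm39 with the CLC Genomics Workbench, and deposited raw counts per gene and mouse. Libraries were stranded and poly(A)-selected. Which annotation was used, whether strand was used, and what was done with reads that fit more than 1 gene are not given in the sources used here. The build GRCm39 is also in the submitters' processing notes. Mice were grouped by the diet in their labels. The labels do not say how mice were housed, so p-values measure the spread between these mice.

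Names, positions and transcript lengths came from the mouse GENCODE release M39 on GRCm39, in which 19827 of 19887 identifiers were found. Genes were kept by filterByExpr (minimum count 10, minimum total 15), scaled by TMM and fitted over the 4 diets with the robust quasi-likelihood F test of edgeR 4.0.16 in R 4.3.3 (two-sided), with Benjamini-Hochberg adjustment over 15348 genes. The threshold was an adjusted p of at most 0.05 and a fold change of at least 1.5, with no fold change for the linear trend. Intervals are 95%, log2 CPM has a prior count of 2, and CPM per kb uses the Ensembl canonical transcript. Alternatives used DESeq2 1.42.0, sva 3.50.0, limma 3.58.1 as a dependency, other filters and scalings, glmTreat, and each mouse left out. Correlations used 100000 two-sided permutations and ratios the 252 exact assignments of 10 mice (smallest p 0.00794) in Python 3.11.15 with scipy 1.17.1, numpy 2.4.6 and pandas 2.3.3, and plots used matplotlib 3.10.9. The model was also run on simulated counts, and the outcome is not reported here.

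The members, the lists of other complement genes and markers, and the tests were chosen with earlier results of these data known. The genes named are the 9 members, other complement genes that passed the threshold or had an unadjusted p under 0.05 with 10% RPS, near copies of members, the highest gene per length in each role, and the 3 genes most correlated with each member. Clu and Cr2 were singled out after their values were seen, and C1ra and Cd46 are named outside these rules. C4a, Mbl1, Fcnb, C8a and C8b were not analysed here, and some genes that these rules name are not reported here.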

Additional observations from a re-analysis of the deposited data

Results flagged for a closer look

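Of 36 sets of 5 mice (9 genes in 4 diets), 5 held a mouse far from its 4 companions, by a gap over 0.71 of the range of the set, where chance gives about 1 in 20 sets. In 3 of these sets the mouse was mouse 3 on 2% RPS, with 62.8 CPM of C1qa (next highest 34.9), 26.8 CPM of C1qc (next highest 13.7) and 19.0 CPM of Cd55 (next highest 10.1), so they are not independent. Mouse 5 on 0% RPS had 44.8 CPM of C1qa (next highest 33.9). Both are among the 3 libraries with over 12% mitochondrial counts. Mouse 3 on 5% RPS, which had the smallest library, had 41.4 CPM of C4b (next highest 29.9).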

How the results depend on the processing

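The count of members past the threshold with 10% RPS, 1 by edgeR, was 2 by DESeq2's Wald test (C4b and Cd55) and 0 with no filter on low counts, with 1 surrogate variable, with only the 2 diets fitted, and with glmTreat. It was also 0 with the marker sums of epithelium, smooth muscle, fibroblasts, macrophages, mesothelium, or B and plasma cells as a covariate and without the 3 mice with over 12% mitochondrial counts. These covariates, the mitochondrial share and the exclusion of those mice were added after seeing the data. For the trend the count of 1 became 0 with DESeq2's size factors, with no filter and with 1 surrogate variable, and 2 by DESeq2's Wald test. For the other complement genes the count of 0 became 1, each time Cd59a, in 3 settings. These were DESeq2's Wald test with 5% RPS and in the trend, and the rank of the dose in the trend. The third was the comparison of 10 with 0% RPS without the 3 mice with over 12% mitochondrial counts. With each mouse left out, these counts were 0 to 2 for members with 10% RPS, 0 to 2 for their trend, and 0 to 1 for other genes with 5% RPS. The cause was not tested. Over all genes, 160 passed with 10% RPS, 369 by DESeq2's Wald test, 0 by glmTreat, 321 with the mitochondrial share as a covariate and 14 to 344 with a mouse left out. DESeq2's Wald test called 710 genes in the trend and 241 with 5% RPS, where edgeR called 170 and 30.

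Some directions turned. C1qb with 2% RPS, at -0.0021, was 0.0039 with DESeq2's size factors, 0.0017 by DESeq2's Wald test, 0.0075 with no filter, 0.0028 with at least 10 counts in every mouse, 0.0095 without immunoglobulin genes and 0.0067 with only the 2 diets fitted. Cfb with 5% RPS was -0.0043 by DESeq2's Wald test. With 1 surrogate variable, C1qa was -0.28, -0.032 and -0.029 with 10, 5 and 2% RPS and had a slope of -0.027 (unadjusted p = 0.0444 with 10% RPS and 0.0337 for the slope), C1qb was -0.051 with 10% RPS and -0.14 between 10 and 5% RPS with a slope of -0.0017, and C1qc was -0.015 with 2% RPS and -0.13 between 10 and 5% RPS. C3 with 10% RPS was -0.066 with the mesothelial sum as a covariate. With each mouse left out, C1qa was -0.016 to 0.16, -0.018 to 0.25 and -0.21 to 0.20 with 10, 5 and 2% RPS, -0.17 to 0.056 between 10 and 5% RPS, and -0.0022 to 0.012 in slope. C1qb was -0.22 to 0.18 with 2% RPS and -0.086 to 0.14 between 10 and 5% RPS, and C1qc -0.23 to 0.26 and -0.063 to 0.29 in the same comparisons. With 2% RPS, C3 was -0.21 to 0.56 and Cd55 -0.040 to 0.42, both lowest without mouse 3 on 2% RPS. Cfb was -0.093 to 0.12 with 5% RPS, -0.039 to 0.18 between 10 and 5% RPS and -0.0019 to 0.0099 in slope. C3, C4b, C2 and Cd55 with 10% RPS stayed above 0 in each of these fits with a mouse left out. The numbers of correlated pairs stayed within 1.5 times under each alternative tried for them. No paired analysis was possible because each mouse number in the labels belongs to 1 diet, and the numbers 1 to 5 used here only name mice. Cfi was too low to be tested.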

Other observations

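Clu and Cr2 were singled out after their values were seen, since their estimates with 10% RPS were large without passing the test. Clu, a soluble inhibitor of the terminal complex, was 19.8 to 119 CPM (median 23.4) on 0% RPS, against 29.2 to 167 CPM (median 118) on 10% RPS. Its log2 fold change was 1.36 ± 0.70 (edgeR adjusted p = 0.297). Cr2, the receptor for C3 fragments on B cells and follicular dendritic cells, was 0.26 to 18.6 CPM (median 2.48) on 0% RPS, against 1.26 to 36.01 CPM (median 30.8) on 10% RPS, with a log2 fold change of 2.32 ± 1.31 (edgeR adjusted p = 0.338). In both genes the diets overlapped. The summed B and plasma cell markers were 55.4 to 446 CPM on 0% RPS, against 270.5 to 491 CPM on 10% RPS, and their part in these differences was not tested.

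Of the membrane regulators other than Cd55 and Cd59a, Cd46 and Cr1l, which act on C3b and C4b, had log2 fold changes of 0.02 ± 0.13 and -0.08 ± 0.12 with 10% RPS (SE, n = 5 per diet, edgeR adjusted p = 0.947 and 0.764).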
